A study of Homo sapiens with 12 samples.

Results

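The genes described here are 9 secreted inflammatory signals, IL1A, IL1B, IL6, LIF, CXCL1, CXCL2, CXCL3, CXCL8 and CCL20, together with PTGS2, the inducible cyclooxygenase. They were chosen by symbol from the 61533 gene entries of the deposited tables, and all 10 were found. They were measured in 4 derivatives of HMLE, a human mammary epithelial line immortalised with telomerase and the SV40 early region, by sequencing of polyadenylated RNA from 3 libraries per line. The HORMAD1_CT83 line overexpresses both transgenes, the HORMAD1 and CT83 lines overexpress 1 each, and the Control line carries a control transgene. All 4 lines were puromycin-selected and had no other treatment, and the study's question was what HORMAD1 and CT83 do in these cells, alone and together. HORMAD1 is a HORMA-domain protein of meiotic chromosomes, and CT83 is a cancer/testis antigen. Each transgene combination was represented by 1 line, so an effect of the transgene and a difference between lines cannot be told apart. The labels do not say whether the libraries came from separate cultures, so p-values measure the spread between libraries, which may be technical. In bulk RNA, fewer cells expressing a gene and less of its RNA per cell cannot be told apart.

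These genes are classical early targets of NF-kB, the transcription factor activated by the IL-1 receptor and by Toll-like receptors. IL-1α is kept inside epithelial cells and acts as an alarm signal on release, and IL-1 receptor signalling in turn raises CXCL8, IL6 and PTGS2 in epithelial cells. The CXCL products draw neutrophils, the CCL20 product draws CCR6-bearing cells, the IL-6 family cytokines IL-6 and LIF signal through gp130 and STAT3, and the PTGS2 enzyme makes the precursor of prostaglandin E2. Many of the transcripts carry AU-rich elements and are short-lived.

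On GRCh38 (GENCODE 29) the 4 CXC genes lie within 1 stretch of chromosome 4, with CXCL8 at chr4:73740506-73743716 and CXCL1 at chr4:73869393-73871242 on the plus strand and CXCL3 at chr4:74036589-74038807 and CXCL2 at chr4:74097035-74099293 on the minus strand. IL1A at chr2:112773915-112784590 and IL1B at chr2:112829751-112836903 are neighbours on the minus strand of chromosome 2, and CCL20 lies on the plus strand of the same chromosome at chr2:227805739-227817564. IL6 lies at chr7:22725884-22732002 on the plus strand, and LIF at chr22:30240447-30246851 and PTGS2 at chr1:186671791-186680427 lie on the minus strand. All 10 are protein-coding, and the counts are over whole genes.

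The CXC chemokine genes and IL6 are shown here for their patterns. The CXC genes varied together, mainly across the HORMAD1 libraries, and all had their highest mean in the HORMAD1 line. IL6 had its highest mean in the Control line. The runs are the 120 bases before the RefSeq transcription start on GRCh38.p14, written 5′ to 3′ on the gene's strand. Capitals mark matches to an NF-kB-like motif, GGG followed by 5 bases of any kind and CC, on either strand, and overlapping matches are merged.
CXCL1: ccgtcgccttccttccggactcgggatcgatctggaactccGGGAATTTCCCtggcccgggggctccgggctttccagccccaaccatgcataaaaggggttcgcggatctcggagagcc
CXCL2: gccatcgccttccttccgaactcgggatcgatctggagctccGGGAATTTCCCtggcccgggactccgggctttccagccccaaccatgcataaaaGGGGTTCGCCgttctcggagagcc
CXCL3: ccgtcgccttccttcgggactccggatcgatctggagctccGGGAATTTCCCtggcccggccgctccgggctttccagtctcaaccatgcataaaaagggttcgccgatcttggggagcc
CXCL8: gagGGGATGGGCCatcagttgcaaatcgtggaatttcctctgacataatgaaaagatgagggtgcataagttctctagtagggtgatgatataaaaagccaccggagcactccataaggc
IL6: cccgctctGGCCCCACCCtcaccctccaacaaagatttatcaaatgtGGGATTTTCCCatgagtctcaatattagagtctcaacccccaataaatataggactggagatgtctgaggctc
The runs lie at chr4:73869273-73869392 on the plus strand for CXCL1, chr4:74099196-74099315 on the minus strand for CXCL2, chr4:74038690-74038809 on the minus strand for CXCL3, chr4:73740449-73740568 on the plus strand for CXCL8 and chr7:22727080-22727199 on the plus strand for IL6.

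The CXCL1, CXCL2 and CXCL3 runs are close copies of each other, with 95.0% identity between CXCL1 and CXCL2, 90.8% between CXCL1 and CXCL3 and 89.9% between CXCL2 and CXCL3 over aligned bases. The CXCL8 run shares 53.3% of aligned bases with that of CXCL1. The NF-kB-like motif occurred in the 250 bases before the start in 7 of the 9 genes that had an entry in the promoter table, namely CCL20, CXCL1, CXCL2, CXCL3, CXCL8, IL6 and PTGS2. It occurred in 54.4% of all 35116 RefSeq promoters of that length. Counted by gene, as for the 9, it occurred in a promoter of 57.8% of 27305 genes. The AP-1 letters TGANTCA occurred in CXCL8 and IL1A, in 6.57% of all promoters and in 8.06% of genes. The longest run common to the CXCL1, CXCL2, CXCL3 and CXCL8 stretches, GGAATTTCC of 9 bases, was in none of the other 5 genes' promoters and in 0.413% of all promoters on either strand; it was sought after the 4 genes had been chosen. In CXCL8 it stands in lower case, as it is not preceded by the first G of the NF-kB-like letters, and in the other 3 genes it lies inside the capitals. These matches describe letters and not bound sites.

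Library totals ran from 9898845 to 14159740 counts, and the smallest count of any of the 10 genes in any library was 18. The transgenes were detected where labelled. HORMAD1 had 283, 313 and 347 normalised CPM (counts scaled by library size) in the HORMAD1_CT83 line and 203, 332 and 335 CPM in HORMAD1 cells, against 0 in every library of the CT83 and Control lines. CT83 had 86.7, 101 and 118 CPM in HORMAD1_CT83 cells and 400, 446 and 724 CPM in CT83 cells, against 0 in every library of the HORMAD1 and Control lines. Its mean was thus 102 CPM in the HORMAD1_CT83 line and 523 CPM in the CT83 line. Comparisons that set these lines side by side are at unlike CT83 levels, and the part of this in the results was not tested. Basal mammary markers were present in all 12 libraries (KRT5 at 2410 to 3130 CPM, TP63 at 131 to 158 CPM), and 4 of 4 endothelial markers stayed under 1 CPM in every library. Of 8 leukocyte markers, 5 stayed under 1 CPM in every library, PTPRC, CD3E and LYZ among them and MS4A1 at 0, while CSF1R reached 119 to 164 CPM and CD14 4.03 to 7.98 CPM. The summed leukocyte markers were 161 to 173 CPM in HORMAD1_CT83 cells, 147 to 167 CPM in HORMAD1 cells, 140 to 164 CPM in CT83 cells and 128 to 169 CPM in Control cells, and their part in the results was not tested. Of 6 fibroblast markers 3 passed the filter, FAP among them at 17.1 to 22.5 CPM. The sum of the 6 was 24.6 to 26.8 CPM in HORMAD1_CT83 cells, 20.3 to 22.6 CPM in HORMAD1 cells, 18.1 to 20.2 CPM in CT83 cells and 23.1 to 29.4 CPM in Control cells. The fibroblast sums thus overlapped only between the HORMAD1_CT83 and Control lines, and their part in the results was not tested. The 6 epithelial and luminal markers summed to 3420 to 4010 CPM in HORMAD1_CT83 cells, 3740 to 4920 CPM in HORMAD1 cells, 3590 to 3950 CPM in CT83 cells and 4370 to 4910 CPM in Control cells.

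Replicate 1 of the HORMAD1 line stood apart from its own replicates. Its counts differed from those of replicates 2 and 3 by 21.8 and 26.4 times the sampling variance per gene, against 2.54 times between replicates 2 and 3. It had the steepest rise of counts with transcript length of the 12 libraries, at 0.077 log2 units per doubling, followed by CT83 replicate 3 at 0.069 and Control replicate 2 at 0.039. Its HORMAD1 transcript was also the lowest of the 6 libraries that carry that transgene. The fold changes named for the 10 genes in comparisons with the HORMAD1 line are therefore also given without HORMAD1 replicate 1. That leaves only HORMAD1 replicates 2 and 3. Without HORMAD1 replicate 3 instead, the HORMAD1 line against the Control line gave -0.16 for CXCL1 and -0.01 for CXCL2 on the log2 scale. Leaving out single libraries in turn gave CXCL8 0.26 to 0.95 there. For the HORMAD1_CT83 line against the HORMAD1 line, edgeR called 39 of all genes without replicate 1. It called 0 without HORMAD1 replicate 2 and 0 without HORMAD1 replicate 3. CT83 replicate 3 also stood apart, at 20.1 and 14.2 times the sampling variance from CT83 replicates 1 and 2, against 3.21 times between those. Values without CT83 replicate 3 enter only the leave-one-out ranges at the end. Without it, PTGS2 in the HORMAD1_CT83 line against the CT83 line moved from -0.09 to 0.12.

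Per kb of transcript, CXCL1 was the most abundant of the 10 genes, averaging 148 CPM per kb over the 12 libraries. IL1A followed at 73.1, IL1B at 39.2, CXCL8 at 31.4 and CXCL2 at 11.4 CPM per kb. CXCL3, LIF, IL6, CCL20 and PTGS2 lay between 5.71 and 3.09 CPM per kb. The HORMAD1 line had the highest mean of the 4 lines for 9 of the 10 genes, and IL6 was highest in the Control line. The lowest mean was in the HORMAD1_CT83 line for 5 genes (IL1B, CXCL2, CXCL3, LIF and PTGS2), in the CT83 line for 3 (IL6, CXCL1 and CXCL8) and in the Control line for 2 (IL1A and CCL20). With all 12 libraries, 0 of the 60 pairwise differences between lines passed edgeR's quasi-likelihood test at a Benjamini-Hochberg adjusted p under 0.05, and 13 of the 60 had an unadjusted p under 0.05. No neighbouring lines in the order of any gene were therefore separated by this test.

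**Figure D1:**
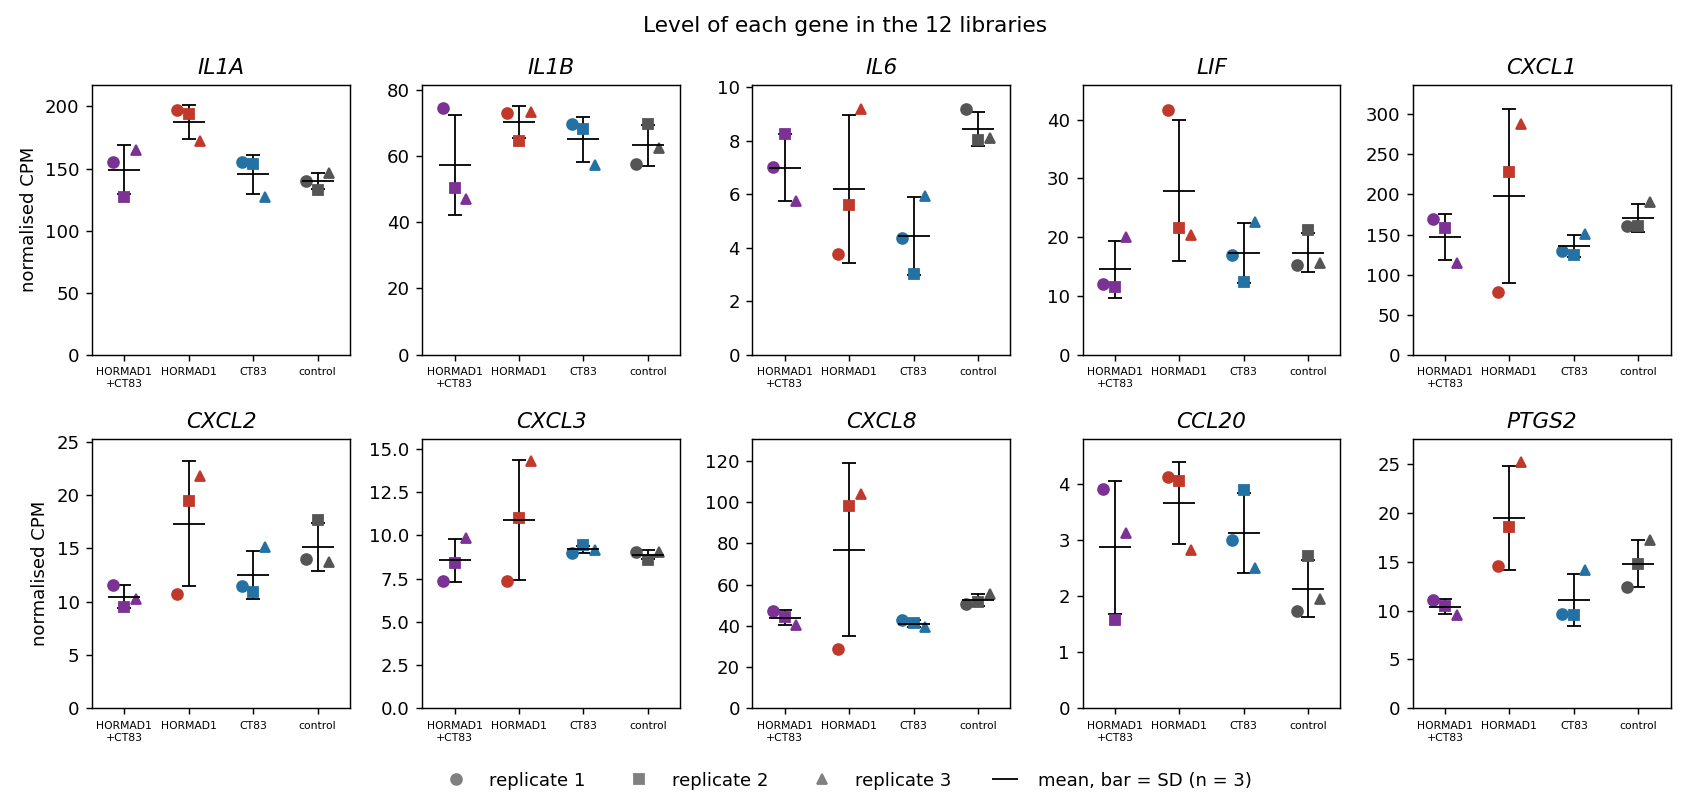
Normalised CPM (y axis, starting at 0) of each gene in the HORMAD1_CT83, HORMAD1, CT83 and Control lines (x axis); points are libraries, with marker shape giving the replicate, and lines with bars are means ± SD (n = 3). HORMAD1 replicate 1 (circle) lies far below its replicates for CXCL1 (78.1 against 228 and 288 CPM) and CXCL8 (28.6 against 98.1 and 104 CPM) and far above them for LIF (41.7 against 21.6 and 20.3 CPM).

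CXCL8, which encodes the neutrophil attractant interleukin-8, had 47.2, 44.3 and 40.2 CPM in HORMAD1_CT83 cells, 28.6, 98.1 and 104 CPM in HORMAD1 cells, 42.6, 41.3 and 39.3 CPM in CT83 cells and 50.4, 51.6 and 55.6 CPM in Control cells. The HORMAD1 line thus held both the highest and the lowest of the 12 libraries, and the HORMAD1_CT83 and CT83 libraries all lay below the Control libraries. The log2 fold change was 0.54 (SE 0.38) for the HORMAD1 line against the Control line (adjusted p = 1) and -0.80 (SE 0.38) for the HORMAD1_CT83 line against the HORMAD1 line (adjusted p = 0.681), both by edgeR's quasi-likelihood test. Without HORMAD1 replicate 1, the same test gave 0.95 (SE 0.09) for the HORMAD1 line against the Control line (adjusted p = 0.000101) and -1.21 (SE 0.09) for the HORMAD1_CT83 line against the HORMAD1 line (adjusted p = 6.86e-06). Against the CT83 line, the HORMAD1 line gave 0.90 (SE 0.38) with all libraries (adjusted p = 0.978) and 1.30 (SE 0.09) without replicate 1 (adjusted p = 1.19e-06). The call for CXCL8 was thus decided by 1 library.

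CXCL1, the most abundant neutrophil attractant here, had 169, 158 and 114 CPM in HORMAD1_CT83 cells, 78.1, 228 and 288 CPM in HORMAD1 cells, 130, 125 and 151 CPM in CT83 cells and 161, 160 and 191 CPM in Control cells. The same 2 HORMAD1 libraries were the highest of the 12 and the third was the lowest, as for CXCL8. CXCL1 gave a log2 fold change of 0.21 (SE 0.39) for the HORMAD1 line against the Control line (adjusted p = 1 by edgeR) and 0.60 (SE 0.17) without replicate 1 (adjusted p = 0.844). For the HORMAD1 line against the CT83 line it was 0.55 (SE 0.39) with all libraries and 0.93 (SE 0.17) without replicate 1, where it passed edgeR's test (adjusted p = 0.0442). For the HORMAD1_CT83 line against the HORMAD1 line it was -0.42 (SE 0.39), and -0.81 (SE 0.17) without replicate 1 (adjusted p = 0.093 by edgeR).

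CXCL2, a second ligand of the neutrophil receptor CXCR2, had 11.6, 9.47 and 10.3 CPM in HORMAD1_CT83 cells, 10.7, 19.5 and 21.8 CPM in HORMAD1 cells, 11.5, 10.9 and 15.1 CPM in CT83 cells and 14, 17.7 and 13.7 CPM in Control cells. The 3 HORMAD1_CT83 libraries lay below all Control libraries and overlapped with the HORMAD1 line only through replicate 1. CXCL2 gave a log2 fold change of -0.53 (SE 0.23) for the HORMAD1_CT83 line against the Control line (adjusted p = 0.869 by edgeR). For the HORMAD1 line against the Control line it was 0.19 (SE 0.22), and 0.46 (SE 0.17) without replicate 1 (adjusted p = 1 and 0.844 by edgeR). For the HORMAD1_CT83 line against the HORMAD1 line it was -0.72 (SE 0.23; adjusted p = 0.386 by edgeR), and -0.99 (SE 0.17) without replicate 1, which passed (adjusted p = 0.0241).

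CXCL3, the third of the close chemokine copies, had 7.36, 8.42 and 9.87 CPM in HORMAD1_CT83 cells, 7.35, 11 and 14.3 CPM in HORMAD1 cells, 9.00, 9.42 and 9.18 CPM in CT83 cells and 9.02, 8.57 and 9.02 CPM in Control cells. Its range was the narrowest of the CXC genes, and the CT83 and Control libraries were almost level. No comparison of CXCL3 passed edgeR's test with or without HORMAD1 replicate 1, and the HORMAD1 line's log2 fold change against the Control line was 0.29 (SE 0.20) with that library and 0.52 (SE 0.17) without it. The coding sequences of CXCL1, CXCL2 and CXCL3 are 93.5%, 90.7% and 94.4% identical for the pairs CXCL1 and CXCL2, CXCL1 and CXCL3, and CXCL2 and CXCL3, with identical runs of up to 97 bases. How the authors' counting divided reads between them is not given in the sources used here, so their separate values are uncertain. Summed, the 3 genes had 188, 176 and 134 CPM in HORMAD1_CT83 cells, 96.2, 258 and 324 CPM in HORMAD1 cells, 150, 146 and 175 CPM in CT83 cells and 184, 186 and 214 CPM in Control cells, and CXCL1 made up 81.2% to 89.9% of the sum. CXCL8 is only 60.6% identical to CXCL1 in its coding sequence.

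CCL20, the ligand of CCR6, was the lowest chemokine, at 3.90, 1.58 and 3.12 CPM in HORMAD1_CT83 cells, 4.11, 4.05 and 2.81 CPM in HORMAD1 cells, 3, 3.89 and 2.49 CPM in CT83 cells and 1.74, 2.71 and 1.94 CPM in Control cells. All 3 HORMAD1 libraries exceeded all 3 Control libraries, by counts of 32 to 61 per library against 23 to 31. By fit this was a log2 fold change of 0.79 (SE 0.32), with an unadjusted p of 0.0252 and an adjusted p of 1 by edgeR. Unlike the CXC genes, CCL20 was highest in HORMAD1 replicate 1, and without that library the value was 0.69 (SE 0.35).

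IL1A, which encodes the alarm cytokine IL-1α, had 155, 127 and 165 CPM in HORMAD1_CT83 cells, 197, 194 and 172 CPM in HORMAD1 cells, 155, 154 and 127 CPM in CT83 cells and 140, 133 and 146 CPM in Control cells. The 3 HORMAD1 libraries were the 3 highest of the 12 and did not overlap with any other line. The log2 fold change of the HORMAD1 line was 0.43 (SE 0.10) against the Control line, a 1.34-fold difference with an unadjusted p of 0.000897 and an adjusted p of 1 by edgeR. It was 0.37 (SE 0.10) against the CT83 line (adjusted p = 0.978), and the HORMAD1_CT83 line against the HORMAD1 line gave -0.33 (SE 0.10; adjusted p = 0.365). With HORMAD1 replicate 1 left out, these 3 values were 0.39 (SE 0.11), 0.33 (SE 0.11) and -0.30 (SE 0.11), and none passed.

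IL1B, which encodes the secreted IL-1β, had 74.6, 50.2 and 46.9 CPM in HORMAD1_CT83 cells, 72.9, 64.6 and 73.3 CPM in HORMAD1 cells, 69.8, 68.0 and 57.3 CPM in CT83 cells and 57.5, 69.8 and 62.4 CPM in Control cells. The HORMAD1_CT83 line held both the highest library and the 2 lowest, and all lines overlapped. The log2 fold changes were 0.15 (SE 0.15) for the HORMAD1 line against the Control line and -0.30 (SE 0.15) for the HORMAD1_CT83 line against the HORMAD1 line, with adjusted p = 1 and 0.681 by edgeR. Leaving out HORMAD1 replicate 1 gave 0.13 (SE 0.17) and -0.27 (SE 0.17).

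IL6, the cytokine of the acute-phase response, had 7.01, 8.24 and 5.74 CPM in HORMAD1_CT83 cells, 3.78, 5.59 and 9.21 CPM in HORMAD1 cells, 4.37, 3.03 and 5.93 CPM in CT83 cells and 9.18, 8.04 and 8.09 CPM in Control cells. All 3 CT83 libraries lay below all 3 Control libraries. The log2 fold change of the CT83 line against the Control line was -0.93 (SE 0.29), with an unadjusted p of 0.00652 and an adjusted p of 0.984 by edgeR. Of the alternatives tried, it passed only with HORMAD1 replicate 1, CT83 replicate 3 and Control replicate 2 all left out, at -1.22 (SE 0.26; adjusted p = 0.0304 by edgeR), where 0.76% of genes were called, an alternative chosen after seeing the data. In the test of non-additivity, (HORMAD1_CT83 minus HORMAD1) minus (CT83 minus Control), IL6 was the only gene of the 10 with a positive value, 1.12 (SE 0.41), with an unadjusted p of 0.0160 and an adjusted p of 0.841 by edgeR, and 0.84 (SE 0.35) without HORMAD1 replicate 1. The IL6 gene overlaps STEAP1B and an antisense gene on the opposite strand, and the use of strand in counting is not given in the sources used here.

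LIF, a further IL-6 family cytokine, had 12, 11.5 and 20.1 CPM in HORMAD1_CT83 cells, 41.7, 21.6 and 20.3 CPM in HORMAD1 cells, 17.0, 12.4 and 22.6 CPM in CT83 cells and 15.3, 21.2 and 15.6 CPM in Control cells. HORMAD1 replicate 1 had the highest LIF of all libraries, in contrast to its low CXC genes. LIF gave a log2 fold change of 0.69 (SE 0.33) for the HORMAD1 line against the Control line and -0.95 (SE 0.33) for the HORMAD1_CT83 line against the HORMAD1 line (adjusted p = 1 and 0.523 by edgeR). Without replicate 1 these were 0.28 (SE 0.27) and -0.54 (SE 0.28), with adjusted p = 0.864 and 0.629. LIF has the second longest transcript of the 10 at 3969 bases and overlaps the antisense genes AC004264.1 over 647 bases and LIF-AS1 over 92 bases.

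PTGS2, the rate-limiting enzyme of inducible prostaglandin synthesis, had 11.1, 10.5 and 9.56 CPM in HORMAD1_CT83 cells, 14.6, 18.6 and 25.2 CPM in HORMAD1 cells, 9.60, 9.51 and 14.2 CPM in CT83 cells and 12.4, 14.8 and 17.2 CPM in Control cells. The HORMAD1_CT83 libraries lay below every HORMAD1 and every Control library, and the HORMAD1 libraries lay above every CT83 library. For the HORMAD1_CT83 line against the HORMAD1 line, means of 10.4 ± 0.772 and 19.5 ± 5.33 CPM (SD, n = 3 each) gave a log2 fold change of -0.90 (SE 0.21), with the lowest adjusted p of the 60 differences, 0.171 by edgeR. An exact permutation test of these 3 against 3 libraries cannot go below p = 0.1, the value it gave. The difference passed with DESeq2 at -0.90 (adjusted p = 0.0248), with edgeR and no filter on low counts at -0.91 (adjusted p = 0.00154), and without HORMAD1 replicate 1 at -1.08 (SE 0.20; adjusted p = 0.0337 by edgeR). With limma-voom it had an adjusted p of 0.282. For the HORMAD1 line against the CT83 line the log2 fold change was 0.81 (SE 0.21; adjusted p = 0.874 by edgeR), and 0.98 (SE 0.19) without replicate 1 (adjusted p = 0.0413). With all libraries and no filter on low counts it also passed, at 0.81 (adjusted p = 0.0278 by edgeR).

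**Figure D2:**
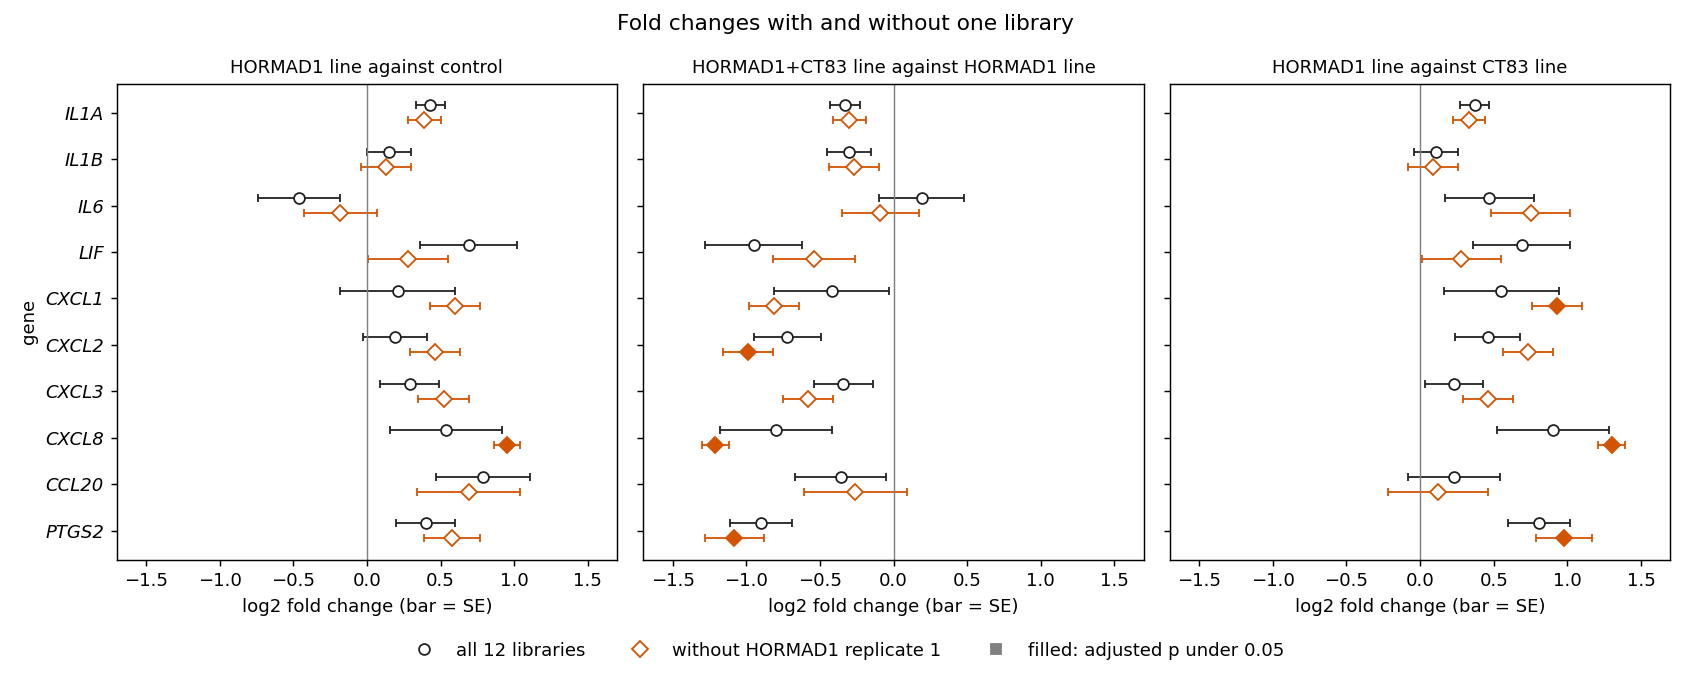
Log2 fold change with its SE (x axis) of the 10 genes (y axis) for the HORMAD1 line against the Control line (left), the HORMAD1_CT83 line against the HORMAD1 line (middle) and the HORMAD1 line against the CT83 line (right), with all 12 libraries (black circles) and without HORMAD1 replicate 1 (orange diamonds); filled symbols passed edgeR's test. Leaving out that library takes CXCL8 in the left panel to 0.95 with an SE of 0.09, and 1, 3 and 3 genes are filled without it from left to right, while 0 are filled with all 12 libraries.

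Taking the 10 genes as a group, the HORMAD1 line against the Control line gave 0 of 10 called with all libraries, where 0.0064% of the 15616 genes tested were called. An unadjusted p under 0.05 was reached by 2 of 10, CCL20 and IL1A, with edgeR, against 1.82% of all genes. DESeq2 and limma-voom also called 0 of 10, where DESeq2 called 0.0128% of all genes. Each gave an unadjusted p under 0.05 for 3 of 10, LIF being the further gene. The share of all genes at that p with these tools is not given here. CCL20 and IL1A were also the 2 genes whose HORMAD1 libraries all exceeded the Control libraries, against 4.25% of all genes in that direction. The fold change was above 0 in 9 of 10, with IL6 the exception, against 52.0% of all genes, and the median was 0.34 on the log2 scale against 0.01. Without HORMAD1 replicate 1, 1 of 10 was called, CXCL8, where 0.0126% of genes were called, and the median of the 10 was 0.49.

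For the HORMAD1_CT83 line against the HORMAD1 line, 0 of 10 were called by edgeR with all libraries, where 0.0448% of genes were called, and 4 of 10 (CXCL2, IL1A, LIF and PTGS2) had an unadjusted p under 0.05, against 7.59% of all genes. DESeq2 called 1 of 10, PTGS2, where it called 0.365% of genes, and edgeR without a filter on low counts called the same 1 of 10, where 0.351% of genes were called. The HORMAD1_CT83 libraries all lay below the HORMAD1 libraries for IL1A, LIF and PTGS2, against 5.91% of all genes in that direction. The fold change was below 0 in 9 of 10, against 51.9% of all genes, with a median of -0.39 against -0.01. Without HORMAD1 replicate 1, CXCL2, CXCL8 and PTGS2 were called, where 0.246% of genes were called, and the median was -0.56. This comparison and the one before share the HORMAD1 libraries, so their opposite directions are not separate evidence. The summed fibroblast markers did not overlap between these lines. Most of the sum was FAP, at 22.4 to 22.5 CPM in HORMAD1_CT83 cells and 19.3 to 20.4 CPM in HORMAD1 cells. DCN and LUM, at most 1.41 and 1.31 CPM, did not overlap either, while COL3A1, MFAP5 and PDGFRA did. Of all genes tested, 6.29% were free of overlap and higher in HORMAD1_CT83 cells. Of the epithelial and luminal markers, CDH1 did not overlap, at 273 to 305 CPM in HORMAD1_CT83 cells and 343 to 409 CPM in HORMAD1 cells. EPCAM, KRT8, KRT18, KRT19 and CD24 overlapped, as did that list's sum. The part of these markers in the results was not tested.

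For the HORMAD1 line against the CT83 line, the fold change was above 0 in 10 of 10, against 49.1% of all genes, with a median of 0.47 against 0.00. With all libraries edgeR, DESeq2 and limma-voom called 0 of 10, where edgeR called 0.0128% and DESeq2 0.0576% of genes. Without a filter on low counts edgeR called 1 of 10, PTGS2, where 0.0354% of genes were called. With the filter, CXCL8, IL1A and PTGS2 had an unadjusted p under 0.05, against 4.64% of all genes. IL1A and PTGS2 did not overlap, against 4.2% of all genes in that direction. Without HORMAD1 replicate 1, CXCL1, CXCL8 and PTGS2 were called, where 0.726% of genes were called. This comparison shares the HORMAD1 libraries with those before it, so its direction is not separate evidence. The CXC genes also varied together, so the 10 of 10 are not separate observations.

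The HORMAD1_CT83 line against the Control line gave 0 of 10 called by edgeR, where 0.0256% of genes were called, and 2 of 10, CXCL2 and PTGS2, had an unadjusted p under 0.05, against 5.56% of all genes. The HORMAD1_CT83 libraries all lay below the Control libraries for CXCL2, CXCL8 and PTGS2, against 7.83% of all genes in that direction, and 8 of 10 fold changes were below 0, against 50.3%. For PTGS2 the log2 fold change was -0.50 (SE 0.21; adjusted p = 0.864 by edgeR). The median of the 10 was -0.24 against 0.00 for all genes. DESeq2 and limma-voom also called 0 of 10, where DESeq2 called 0.032% of all genes. HORMAD1 libraries enter this comparison only through the shared scaling and estimate of the spread. The summed epithelial and luminal markers were lower in every HORMAD1_CT83 library than in any Control library, as given above, and their part in the results was not tested.

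The CT83 line against the Control line gave 0 of 10 called by edgeR, where 0.0064% of genes were called, and IL6 alone had an unadjusted p under 0.05, against 2.74% of all genes. DESeq2 and limma-voom called 0 of 10 here and for the HORMAD1_CT83 line against the CT83 line. In these comparisons DESeq2 called 0.0064% and 0.0192% of all genes, in that order. The CT83 libraries all lay below the Control libraries for CXCL1, CXCL8 and IL6, against 5.73% of all genes in that direction, and 6 of 10 fold changes were below 0, against 48.4%. The comparisons against the Control line share its libraries, so they are not separate evidence. Both the summed epithelial and luminal markers and the summed fibroblast markers lay lower in every CT83 library than in any Control library, and their part in the results was not tested. The HORMAD1_CT83 line against the CT83 line gave 0 of 10 called, where 0.0064% of genes were called, and no gene of the 10 was free of overlap, where 8.86% of genes were free of it and higher and 9.04% free of it and lower. There, 6 of 10 fold changes were below 0, against 50.2% of all genes. IL6 alone had an unadjusted p under 0.05, against 8.05% of all genes, with a log2 fold change of 0.66 (SE 0.30; adjusted p = 0.585 by edgeR). In the test of non-additivity 0 of 10 and 0.0% of all genes were called, IL1A and IL6 had an unadjusted p under 0.05, against 4.5% of all genes, DESeq2 called 0 of 10 and 0.0192% of all genes, and limma-voom called 0 of 10. Of the 10, 9 had a value below 0, against 51.5% of all genes, with a median of -0.42 against -0.01, and 9 had one without HORMAD1 replicate 1, with a median of -0.58. The CT83 level differs between the HORMAD1_CT83 and CT83 lines in this test, as given above, so a value other than 0 need not mean non-additivity.

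**Figure D3:**
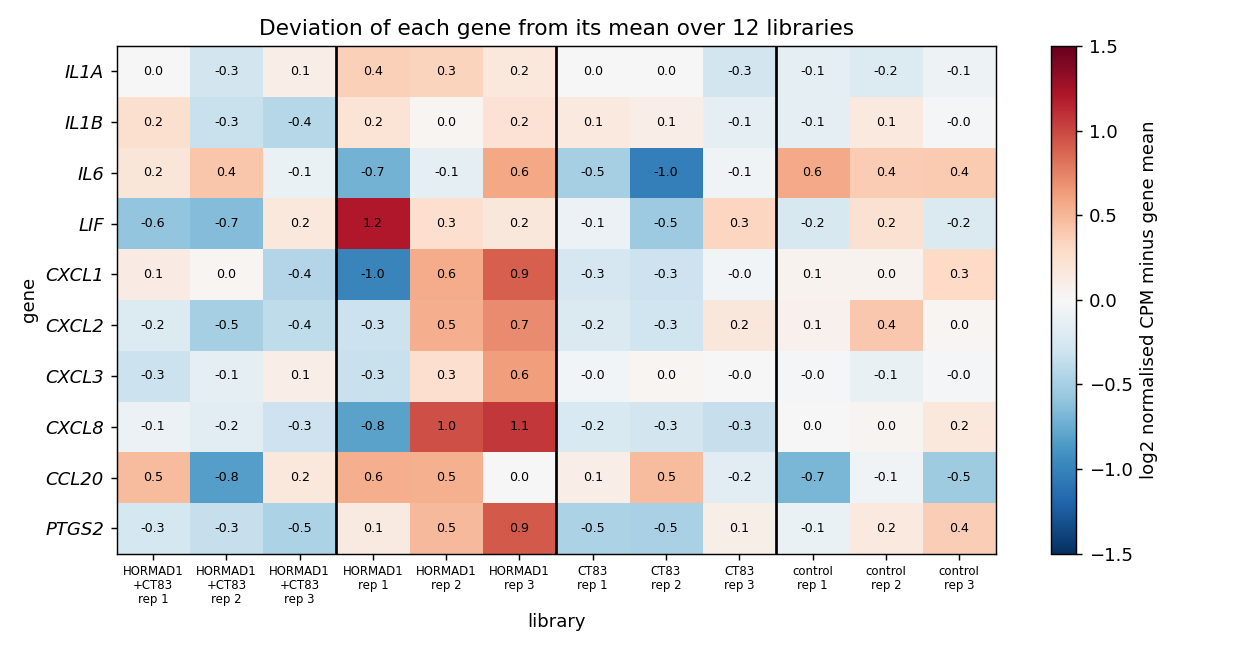
Deviation of log2 normalised CPM from each gene's mean over 12 libraries (colour and printed value) for the 10 genes (rows) in the HORMAD1_CT83, HORMAD1, CT83 and Control libraries (columns, left to right). Averaged over the 4 CXC genes, HORMAD1 replicate 1 lay at -0.61 while HORMAD1 replicates 2 and 3 lay at 0.58 and 0.81, and the other 9 libraries lay between -0.26 and 0.11.

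Within the group, the CXC genes varied together mainly across the HORMAD1 libraries, and the other genes followed them to different degrees. The mean of the 4 CXC genes deviated by -0.61, 0.58 and 0.81 in the HORMAD1 libraries, and by -0.26 to 0.11 elsewhere. Within the HORMAD1_CT83 line, CXCL3 rose (7.36, 8.42 and 9.87 CPM) while CXCL8 fell (47.2, 44.3 and 40.2 CPM). In the CT83 line the library with the highest CXCL1 had the lowest CXCL8, while in the Control line both were highest in replicate 3. All correlations below include HORMAD1 replicates 2 and 3. Over the 12 libraries, which share lines, depth and length trend, Pearson's r of log2 CPM was 0.92 between CXCL1 and CXCL8, 0.81 between CXCL2 and CXCL8 and 0.79 between CXCL3 and CXCL8. After each line's mean was taken off, the first of these was 0.96, and without HORMAD1 replicate 1 it was 0.92. The coding sequences of CXCL1 and CXCL8 share no identical run longer than 9 bases, and the part of reads shared among CXCL1, CXCL2 and CXCL3 in their own correlations was not tested. PTGS2 followed CXCL2 with r = 0.85, and 0.91 without HORMAD1 replicate 1. IL1A and CCL20 had r = 0.73, and 0.70 within lines. LIF went against CXCL8 within lines (r = -0.71), while r over the 12 libraries was -0.13, and 0.37 without HORMAD1 replicate 1. IL6 went with the CXC genes more closely within lines (r = 0.78 with CXCL1, 0.73 with CXCL2, 0.59 with CXCL3 and 0.63 with CXCL8) than over the 12 libraries (0.66, 0.43, 0.24 and 0.49 in the same order). Without HORMAD1 replicate 1, IL6 had r = 0.56, 0.36, 0.08 and 0.36 with the CXC genes in the same order. The values within lines all include that library. IL6 also had r = 0.78 with PTGS2 within lines, and -0.68 with CCL20 over the 12 libraries.

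**Figure D4:**
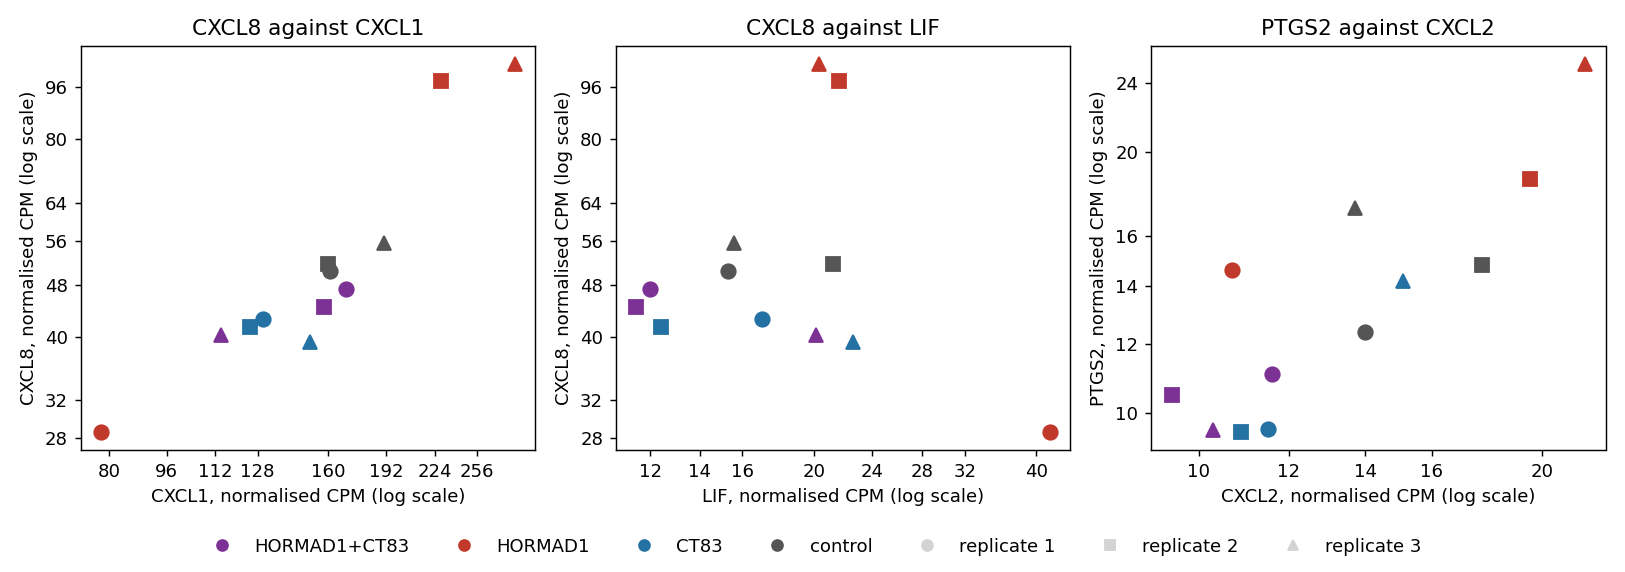
CXCL8 against CXCL1 (left), CXCL8 against LIF (middle) and PTGS2 against CXCL2 (right), in normalised CPM on log axes; colour gives the line in the order HORMAD1_CT83, HORMAD1, CT83, Control and marker shape the replicate, with 1 point per library. HORMAD1 replicate 1 sits at the low end of the left panel (78.1 CPM for CXCL1, 28.6 CPM for CXCL8) and at the high LIF end of the middle panel (41.7 CPM), away from HORMAD1 replicates 2 and 3.

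The genes most like the mean of the 10 over the 12 libraries, among all other genes tested, were NALCN (r = 0.97), PAWR (0.93), ARHGAP18 (0.92), RAB6A (0.91) and MAL2-AS1 (0.91). For single genes the closest were LYN for CXCL8 (0.95), NARS1 for CXCL1 (0.97), CALU for CXCL3 (0.85), LRRIQ1 for CCL20 (0.93), KLHL5 for IL1A (0.91), LAMP3 for IL1B (0.92), EXT1 for IL6 (0.90) and PRC1-AS1 for LIF (0.96). Each was picked as the highest among all other tested genes, and the antisense genes among them cannot be told apart from their partners without strand.

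The pathway around these genes was examined through 8 lists with 86 tested genes in all, and edgeR called 0 of the 86 in each of the 7 comparisons. An unadjusted p under 0.05 was reached by 14 of them for the HORMAD1_CT83 line against the HORMAD1 line, which is 16.3% against 7.59% of all genes, and by 2 for the HORMAD1 line against the Control line, which is 2.33% against 1.82% of all genes. In the other 5 comparisons it was 5 to 11 genes, or 5.81% to 12.8%, against 2.74% to 8.05% of all genes. DESeq2 called 3, BIRC3, TNFAIP3 and IL32, all lower in the HORMAD1_CT83 line than in the HORMAD1 line, where it called 0.365% of all genes. In the other comparisons DESeq2 called 0 of the 86, where it called 0.0064% to 0.0576% of all genes. With limma-voom 0 were called throughout. Without HORMAD1 replicate 1, edgeR called IL32 for the HORMAD1_CT83 line against the HORMAD1 line, where 0.246% of all genes were called. It then called IL32, IL6ST and MYD88 for the HORMAD1 line against the CT83 line, where 0.726% of all genes were called. In the other 5 comparisons it called 0 of the 86. Of 17 genes of the path from the IL-1 and Toll-like receptors to NF-kB, 17 were tested, and their median for the HORMAD1_CT83 line against the HORMAD1 line was -0.06, and -0.08 without HORMAD1 replicate 1. Of the 17, 10 were below 0 and 7 above 0. NFKB1, which encodes the p50 precursor, averaged 80.6 ± 5.89 CPM in HORMAD1_CT83 cells and 87.8 ± 5.04 CPM in HORMAD1 cells (SD, n = 3 each). RELA, the p65 subunit, averaged 58.8 ± 8.07 CPM in HORMAD1_CT83 cells and 60.5 ± 8.70 CPM in HORMAD1 cells. NFKB2, with the list's smallest p here, averaged 41.5 ± 1.89 and 53.3 ± 8.44 CPM in the same order. Its log2 fold change was -0.36 (SE 0.15), with an unadjusted p of 0.0281 and an adjusted p of 0.59 by edgeR. NFKB2, RELB and TAB2 lay lower in HORMAD1_CT83 cells without overlap, against 5.91% of all genes. RELB had 15.4 to 20.7 CPM in HORMAD1_CT83 cells and 21.1 to 22.4 CPM in HORMAD1 cells.

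In the list of feedback inhibitors and targets of NF-kB, 10 of 13 tested genes were below 0 for the HORMAD1_CT83 line against the HORMAD1 line, against 51.9% of all genes. The median was -0.16, and 4 had an unadjusted p under 0.05, against 7.59% of all genes. With HORMAD1 replicate 1 left out, 9 of 13 were below 0, against 49.8% of all genes, and the median was again -0.16. BIRC3, the NF-kB-induced ubiquitin ligase cIAP2, had 100, 79.4 and 98.7 CPM in HORMAD1_CT83 cells and 148, 152 and 134 CPM in HORMAD1 cells. The lines did not overlap, HORMAD1 replicate 1 lay with its replicates, and the log2 fold change was -0.64 (SE 0.12; adjusted p = 0.0811 by edgeR and 0.00107 by DESeq2), and -0.63 without that library (adjusted p = 0.0597 by edgeR). TNFAIP3, the deubiquitinase A20 that shuts NF-kB signalling off, had 35.7, 36.0 and 31.1 CPM in HORMAD1_CT83 cells and 52.2, 50.1 and 54.1 CPM in HORMAD1 cells, a log2 fold change of -0.61 (SE 0.12; adjusted p = 0.124 by edgeR and 0.00749 by DESeq2), and -0.61 without HORMAD1 replicate 1 (adjusted p = 0.0569 by edgeR). NFKBIA, which encodes the inhibitor IκBα, averaged 121 ± 22.6 CPM in HORMAD1_CT83 cells and 107 ± 2.68 CPM in HORMAD1 cells.

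Among 14 tested of 25 other cytokines and chemokines, IL32 and CXCL16 had the smallest p for the HORMAD1_CT83 line against the HORMAD1 line. IL32 had 17.4, 18.2 and 14.6 CPM in HORMAD1_CT83 cells and 22.1, 30.3 and 31.7 CPM in HORMAD1 cells (adjusted p = 0.127 by edgeR, 0.00774 by DESeq2 and 0.00484 by edgeR without HORMAD1 replicate 1), and CXCL16, a membrane-bound chemokine, averaged 28.1 ± 0.860 CPM in HORMAD1_CT83 cells and 40.9 ± 2.75 CPM in HORMAD1 cells (adjusted p = 0.176 by edgeR, and 0.126 without that library). TNF, CCL2, CCL5 and CXCL10 were too low to be tested. In the prostaglandin list, 9 of 12 genes were tested. PTGES, the synthase that turns the PTGS2 product into prostaglandin E2, averaged 108 ± 7.14 CPM in HORMAD1_CT83 cells and 139 ± 7.96 CPM in HORMAD1 cells, a log2 fold change of -0.37 (adjusted p = 0.287 by edgeR), and -0.35 without HORMAD1 replicate 1.

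Of 12 listed genes for receptors of the cytokines among the 10, of related cytokines and of prostaglandins, 6 were tested. IL6ST, which encodes gp130, averaged 198 ± 7.75 CPM in HORMAD1_CT83 cells, 206 ± 27.8 CPM in HORMAD1 cells, 165 ± 7.48 CPM in CT83 cells and 190 ± 9.77 CPM in Control cells. The chemokine receptors CXCR1, CXCR2 and CCR6 did not pass the filter on low counts, with CCR6 at 0 in all 12 libraries. The receptor of both IL-1 cytokines, IL1R1, averaged 11.6 ± 0.591 CPM in HORMAD1_CT83 cells, 11.9 ± 1.22 CPM in HORMAD1 cells, 8.81 ± 0.924 CPM in CT83 cells and 9.07 ± 1.19 CPM in Control cells. Of 14 genes of the IL-1 family and its processing other than IL1A and IL1B, 10 were tested, with a median of -0.04 for the HORMAD1_CT83 line against the HORMAD1 line, and -0.22 without HORMAD1 replicate 1. CASP1, the protease that cuts IL-1β to its active form, averaged 42.4 ± 4.60 CPM in HORMAD1_CT83 cells and 35.2 ± 2.93 CPM in HORMAD1 cells. In the list of 8 genes that govern decay or stability of AU-rich mRNAs, 0 were called and 8 of 8 were below 0 for the HORMAD1_CT83 line against each of the HORMAD1, CT83 and Control lines, where 51.9%, 50.2% and 50.3% of all genes were, with medians of -0.30, -0.38 and -0.25. The 3 comparisons share the HORMAD1_CT83 libraries, so they are not separate evidence. Against the HORMAD1 line without its replicate 1, 5 of 8 were below 0, against 49.8% of all genes, with a median of -0.12. HNRNPD, KHSRP and ZFP36 were not below 0. Of 10 genes of gp130 signalling, 8 were below 0 for the HORMAD1_CT83 line against the HORMAD1 line, against 51.9% of all genes. Their median was -0.11. Without HORMAD1 replicate 1, 7 of 10 were below 0, against 49.8% of all genes, with a median of -0.02. STAT3 averaged 104 ± 3.08 CPM in HORMAD1_CT83 cells and 119 ± 2.78 CPM in HORMAD1 cells, and SOCS3, its feedback inhibitor, averaged 14.2 ± 1.14 CPM in HORMAD1_CT83 cells and 18 ± 2.35 CPM in HORMAD1 cells.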

How the data were processed

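Polyadenylated RNA of 12 libraries was sequenced. The submitters' processing notes name STAR 2.7.5c, Trimmomatic 0.39, SAMtools and Picard, and the builds hg38 and hg19 without roles. How genes were counted, and with which annotation and strand setting, is not given in the sources used here. Deposited by the authors were expected counts per gene, 6.75% of them not whole, which were rounded here. Total counts were 9898845 to 14159740 per library, which sets the precision; ERCC RNA was added per the labels' protocols, but the files held 0 ERCC entries.

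Samples were grouped by title. In R 4.3.3 with edgeR 4.0.16, genes passing filterByExpr (minimum count 10; 15616 genes) were scaled by TMM and fitted in a robust quasi-likelihood model with 1 mean per line. The 6 pairwise comparisons and the interaction were each adjusted by Benjamini-Hochberg over all genes tested (threshold 0.05). CPM are TMM-scaled; CPM per kb uses the longest GENCODE 29 transcript. Single values were also compared by two-sided exact permutation tests. Replicates with the same number in different lines had deviations correlated at -0.54 to 0.60, so numbers were not taken to pair libraries.

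The 10 genes, the pathway lists and the motifs were chosen with earlier results of these data known. Named beside the 10 genes were, per list, the 3 with the highest CPM per kb and the 2 with the smallest p in each of 2 comparisons, HORMAD1_CT83 against HORMAD1 and HORMAD1 against Control, after the list's called genes, of which there were 0. List genes named as too low to be tested were picked after their values were seen. Genes most like the 10 were ranked by Pearson's r. Those for CXCL2 and PTGS2 are not reported here. Alternatives were DESeq2 size factors, no filter, DESeq2 1.42.0, limma-voom (limma 3.58.1), only the lines compared, a replicate block, length and GC offsets, and leaving out each library. Scripts were tested on simulated data.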

Additional observations from a re-analysis of the deposited data

How the results depend on the processing

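Over 21 alternatives, 1412 of 1460 fold changes of the 10 genes kept their direction and their side of the threshold. Of the others, 20 newly passed the threshold and 28 changed sign. There was no call to lose, as the main edgeR fit called 0 of the 10 genes in each of the 7 comparisons. All 10 passed the filter, and depth limits CCL20 and IL6 most. The cause of the changes below was not tested.

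Genes called by edgeR are given in the order HORMAD1_CT83 against Control, HORMAD1 against Control, CT83 against Control, HORMAD1_CT83 against HORMAD1, HORMAD1_CT83 against CT83, HORMAD1 against CT83 and the interaction; with all 12 libraries they were 4, 1, 1, 7, 1, 2 and 0. Without a filter on low counts they were 12, 1, 0, 99, 0, 10 and 2, with DESeq2 5, 2, 1, 57, 3, 9 and 3, and with limma-voom 2, 1, 1, 3, 2, 2 and 0. With only the lines compared they were 6, 0, 0, 1, 1 and 1, with no separate fit for the interaction. With length and GC offsets they were 2, 1, 1, 11, 1, 2 and 0. Without the 3 libraries with the steepest trend they were 13, 6, 119, 339, 73, 927 and 22, of which 0, 1, 1, 3, 0, 4 and 1 were among the 10 genes. Without the filter, 1 of the 10 was called in HORMAD1_CT83 against HORMAD1 and 1 in HORMAD1 against CT83, and DESeq2 called 1 in HORMAD1_CT83 against HORMAD1.

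Leaving out 1 library at a time gave 1 to 5, 1 to 2, 0 to 1, 0 to 39, 1 to 2, 1 to 115 and 0 to 0 genes called in the same order, and 0 to 1 of the 10 genes in HORMAD1 against Control, 0 to 3 in HORMAD1_CT83 against HORMAD1, 0 to 3 in HORMAD1 against CT83 and 0 in the others. HORMAD1 replicate 1 gave the highest of each of these 3 ranges of the 10 genes, and 39 and 115 of all genes. Over the same settings the log2 fold change changed sign for CXCL3 in HORMAD1_CT83 against Control (-0.17 to 0.04), for CXCL1 (-0.16 to 0.60) and CXCL2 (-0.01 to 0.46) in HORMAD1 against Control, for IL1B (-0.03 to 0.13) and LIF (-0.24 to 0.19) in CT83 against Control, and for IL6 in HORMAD1_CT83 against HORMAD1 (-0.09 to 0.60). It also did so for IL1A (-0.06 to 0.14), CCL20 (-0.43 to 0.17) and PTGS2 (-0.20 to 0.12) in HORMAD1_CT83 against CT83, for CXCL3 in HORMAD1 against CT83 (-0.02 to 0.46) and for CXCL1 in the interaction (-0.48 to 0.29).

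Without the 3 libraries, IL6 was at -0.09 in HORMAD1_CT83 against HORMAD1, IL1A at -0.05 and PTGS2 at 0.12 in HORMAD1_CT83 against CT83, and CCL20 at -0.01 in HORMAD1 against CT83. In HORMAD1_CT83 against CT83, IL1A was at -0.09 and CXCL8 at -0.08 with length and GC offsets. With limma-voom, CXCL1 in the interaction was at 0.10.

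With the replicate number as a block, 2, 1, 1, 1, 2, 2 and 0 genes were called, 0 of them among the 10, and CXCL1 in the interaction was at 0.01. With the block and the length and GC offsets, 2, 1, 1, 6, 2, 2 and 0 genes were called, and IL1A was at -0.09 and CXCL8 at -0.07 in HORMAD1_CT83 against CT83. Same-numbered libraries did not deviate together (median r -0.16 over 18 pairs), and 6 of 12 libraries correlated best with their own number.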
